A study of Mus musculus with 24 samples.

Results

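Knockdown (KD) of Baf180 was compared with KD of Baf250a in cultured mouse myoblasts, with the metal treatment held as a block. Baf180, encoded by Pbrm1, belongs to the PBAF form of the SWI/SNF chromatin remodeling complex, and Baf250a, encoded by Arid1a, belongs to the canonical BAF form. The members of the comparison were the RNA-seq libraries whose titles name either KD line, less 1 Baf250a KD library with Zn that held 495778 counts. This left 11 of the 24 libraries of the series, 6 of Baf180 KD and 5 of Baf250a KD. Each KD line was grown without added metal (NT), with 100 µM CuSO4 (Cu) or with 50 µM ZnSO4 (Zn) for 48 h. Baf180 KD had 2 libraries per treatment, and Baf250a KD had 2 for NT, 2 for Cu and 1 for Zn. The cells are C2C12 myoblasts by the study's methods and primary mouse myoblasts by the sample labels. The 6 libraries of scr cells, which carried a non-targeting shRNA, are given below only as a description. They were 2 each of NT, Cu and Zn, and the scr means and ranges below pool these treatments. By the study's methods, each KD line had taken up a lentiviral shRNA, had been selected with puromycin and was kept as a stable population. Loss of a subunit and other differences between the populations cannot be told apart. Whether the replicates of a line came from 1 transduced population or from separate ones is not stated. If they share 1 population, the p-values measure only the spread between its separately grown cultures. Total counts ran from 13979295 to 33297041 over the 11 libraries (median 22290216), with 20362 to 23361 genes detected by at least 1 count.

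SWI/SNF complexes use the energy of ATP to move or evict nucleosomes. PBAF and canonical BAF share an ATPase and a core of common subunits, and each has subunits of its own that direct it to chromatin. Baf180 carries several bromodomains, which bind acetylated histones, and is found in PBAF. Baf250a carries an AT-rich interaction domain and is the subunit around which most canonical BAF is built. In myoblasts these complexes are known as partners of MyoD, the transcription factor that opens muscle genes during differentiation.

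A pair of shRNAs is listed for each target, and the sources used here do not say which one was in the sequenced cells. The targets are shown because they decide which transcripts of Pbrm1 and Arid1a an shRNA can reach. Sequences are in the sense of the mRNA, 5′ to 3′, in lower case, and capitals mark the bases that lie in the second of 2 exons.
Pbrm1 shRNA 1: tgtgaagttggtcctagttta
Pbrm1 shRNA 2: gtgCAATATCCAGACTATTAT
Arid1a shRNA 1: ctttatagtatggcgagttaa
Arid1a shRNA 2: cctaggcagcctaactataat
On GRCm38 the first Pbrm1 target lies in the 3′ UTR, in exon 31 of 31, at chr14:31119323-31119343 on the plus strand, and 4 of 17 annotated Pbrm1 transcripts hold it. The second Pbrm1 target is coding sequence that spans the junction of exons 7 and 8 (chr14:31036057-31036059 and chr14:31038933-31038950), and 13 of 17 transcripts hold it. The first Arid1a target lies in the 3′ UTR, in exon 20 of 20, at chr4:133679414-133679434 on the minus strand, in 2 of 6 transcripts. The second lies in coding exon 8 at chr4:133694042-133694062, in 4 of 6 transcripts. No other annotated gene held any of these 21-base targets.

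Both targeted transcripts were lower in the line named for them. Pbrm1 had 42.1 to 75.1 CPM (median 59.2) in the 6 Baf180 KD libraries, where CPM are counts scaled to a common library total with edgeR's TMM factors. In the Baf250a KD libraries it had 205, 224, 204, 193 and 155 CPM, given here and below in the order NT, NT, Cu, Cu and Zn. All 6 Baf180 KD values lay below all 5 Baf250a KD values, and the scr libraries had 100 to 227 CPM (median 156). The log2 difference was -1.72 ± 0.10 (SE; edgeR adjusted p = 1.14e-09), where a log2 difference is Baf180 KD minus Baf250a KD throughout. Arid1a, in turn, had 206 to 263 CPM (median 236) in Baf180 KD cells and 100, 99.1, 117, 113 and 92 CPM in Baf250a KD cells. Here the Baf250a KD libraries were the lower ones, again without overlap, against 263 to 307 CPM (median 293) in scr cells. The log2 difference was 1.19 ± 0.08 (edgeR adjusted p = 5.56e-09). Neither transcript was absent from its KD line.

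Other subunits of the complexes differed less between the lines. Of the 4 PBAF-specific subunits tested, Pbrm1 was lower in Baf180 KD cells, and Arid2, Brd7 and Phf10 were not called, with log2 differences between -0.06 and 0.15. Of 4 canonical BAF-specific subunits, Arid1a and Dpf1, a subunit known from neural BAF complexes, were higher. Dpf1 had 8.94 ± 1.29 against 4.07 ± 1.64 CPM (mean ± SD, n = 6 and 5, as for all means below), and Arid1b, the paralog that can take the place of Arid1a, was not called (149 against 155 CPM). The 3 subunits of non-canonical BAF, Brd9, Bicra and Bicral, were not called, with log2 differences of -0.11 ± 0.08 for Brd9 and -0.03 ± 0.061 for Bicral. Of the 16 shared subunits tested, 6 were higher and 2 lower in Baf180 KD cells (37.5% and 12.5%, beside 21.7% and 22.6% of all genes tested). The lower ones were Smarca2, which encodes the ATPase BRM (log2 difference -0.54 ± 0.081), and Ss18l1 (-0.47 ± 0.11), and the largest of the higher ones were Actl6a (0.43 ± 0.071) and Smarcd3 (0.40 ± 0.076).

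The lines differed at many genes. At an adjusted p under 0.05 and without a minimum fold, 7321 of 16554 genes tested were called (44.2%), 3585 of them higher in Baf180 KD cells (21.7%) and 3736 lower (22.6%). Counts of called list members in the paragraphs below are to be read beside these shares. The median log2 difference of all genes tested was 0.0072. A difference of at least 2-fold was seen for 661 of the higher and 848 of the lower genes, and one of at least 8-fold for 53 and 82. With a minimum fold of 1.5, 2906 genes remained called. The 2 lines did not overlap in CPM at 3932 genes, 23.8% of those tested. Over the 500 most variable genes, 78.3% of the variance lay between the lines, 12.6% between treatments within a line and 9.08% between replicates.

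**Figure D1:**
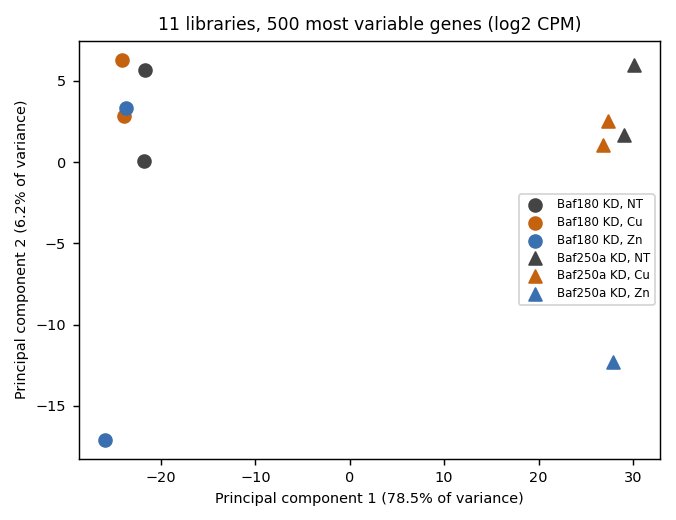
Principal components of log2 CPM over the 500 most variable genes, with a circle for each Baf180 KD library and a triangle for each Baf250a KD library, coloured by treatment. The first component (78.5% of the variance) separates the lines, and on the second (6.2%) the Zn replicate 1 libraries of both lines lie apart from the other 9.

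Both Zn replicate 1 libraries stood apart on the second component in the plot of principal components. Without the Zn libraries (4 against 4) 6989 genes were called, without the Baf180 KD one alone 6970, and without the Baf250a KD one alone 7042. The RNAs that ribosomal RNA removal leaves behind and other small structured RNAs also differed. Over all treatments, all 8 such transcripts tested had a log2 difference above 0, from 0.43 to 1.64 with a median of 0.68. Of these, 3 were called, Rpph1 (0.52), Rmrp (0.44) and Rn7sk (0.43). Within treatments the sign could turn, as for Mir6236, with 6.24 in NT and -4.19 in Cu. CT010467.1, the most abundant of those not called, had 3360 against 1700 CPM (log2 1.05, edgeR adjusted p = 0.122). Within NT 6 of the 8 were called higher, with a filter of at least 1 count all 8, without Cu replicate 1 of Baf250a KD 7, and with an offset for GC content and transcript length 0. The share of counts on the mitochondrial genome overlapped between the lines, with 0.856% to 1.74% in Baf180 KD and 0.888% to 1.71% in Baf250a KD libraries. The part of these differences in the results below was not tested.

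The 24 genes with the largest differences are genes called in the comparison, with a mean of at least 5 CPM and no overlap between the lines. Their sign was the same in NT, Cu and Zn, which the rule of no overlap fixed in advance. All 24 were also called within each treatment, in the same libraries that chose them. Among the 12 highest in Baf180 KD cells were several known from neurons. Ngfr, which encodes the low-affinity neurotrophin receptor p75, had 21.8 to 38.6 CPM (median 32) in Baf180 KD cells and 1.2, 0.85, 2.52, 1.52 and 1.39 CPM in Baf250a KD cells. The difference was 20.3-fold (log2 4.34 ± 0.14, edgeR adjusted p = 1.09e-12). Gap43, a growth cone protein, had 50.7 to 68.4 CPM (median 60.3) against 3.57, 3.54, 4.13, 3.7 and 5.02 CPM (log2 3.90 ± 0.11, edgeR adjusted p = 3.47e-13). For both genes every Baf180 KD library lay far above every Baf250a KD library. Stmn4 and Crmp1, which encode a stathmin and a collapsin response mediator that act on microtubules, differed by 3.61 and 3.41 on the log2 scale. Hhip, which encodes an inhibitor that binds Hedgehog ligands, had 19.1 to 37.1 CPM (median 25.4) in Baf180 KD cells and 1.63, 1.42, 0.825, 1.64 and 1.81 CPM in Baf250a KD cells (log2 difference 4.29 ± 0.16 (SE), edgeR adjusted p = 4.71e-12). Msc, the gene of the bHLH repressor musculin, had 12.3 ± 1.64 against 0.861 ± 0.373 CPM and a log2 difference of 3.74 ± 0.19. Avil, Vash1, Sprr1a, Podxl and Efhd1 were also among the 12, with log2 differences between 3.23 and 3.29. The scr mean was nearer to Baf180 KD than to Baf250a KD for 9 of these 12 genes. It was 59.3 CPM for Gap43 and 80 CPM for Stmn4, which had 20.6 CPM in Baf180 KD cells. For Ngfr (13.8 CPM) and Crmp1 (3.19 CPM) it lay between the lines.

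The 12 genes lowest in Baf180 KD cells, and so highest in Baf250a KD cells, included genes of cartilage, tendon and bone matrix. Col2a1, the main collagen of cartilage, had 0.409 to 0.689 CPM (median 0.585) in Baf180 KD cells and 38.4, 37.5, 41.4, 48.4 and 46.8 CPM in Baf250a KD cells. This 74-fold difference (log2 -6.21 ± 0.11, edgeR adjusted p = 1.31e-15) was the largest of the 24. Fmod and Omd, which encode the small proteoglycans fibromodulin and osteomodulin, differed by -4.47 ± 0.13 and -3.65 ± 0.25 on the log2 scale. Fmod had 0.86 to 2.68 CPM (median 1.8) against 52.1, 48.9, 41, 30.6 and 36.4 CPM. Lama1, a chain of laminin-111, had 0.997 ± 0.193 against 18.3 ± 3.15 CPM, and Tnfrsf11b, which encodes the decoy receptor osteoprotegerin, had 1.05 ± 0.0965 against 16.1 ± 2.93 CPM. Car3, a carbonic anhydrase of muscle and fat, had 9.76 to 20.7 CPM (median 13.1) against 239, 227, 193, 178 and 175 CPM (log2 -3.86 ± 0.10, edgeR adjusted p = 1.21e-13). Secreted regulators were among them too, namely Sfrp2, a modulator of Wnt signals (14.7 ± 2.59 against 173 ± 23.6 CPM), and Chrdl1, which binds BMPs (1.63 ± 0.549 against 21.5 ± 4.49 CPM). The others were Camk1g, Rgs4, Trabd2b and Mn1, between -3.73 and -3.36 on the log2 scale. The scr mean was below both KD lines for all 12 of these genes.

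**Figure D2:**
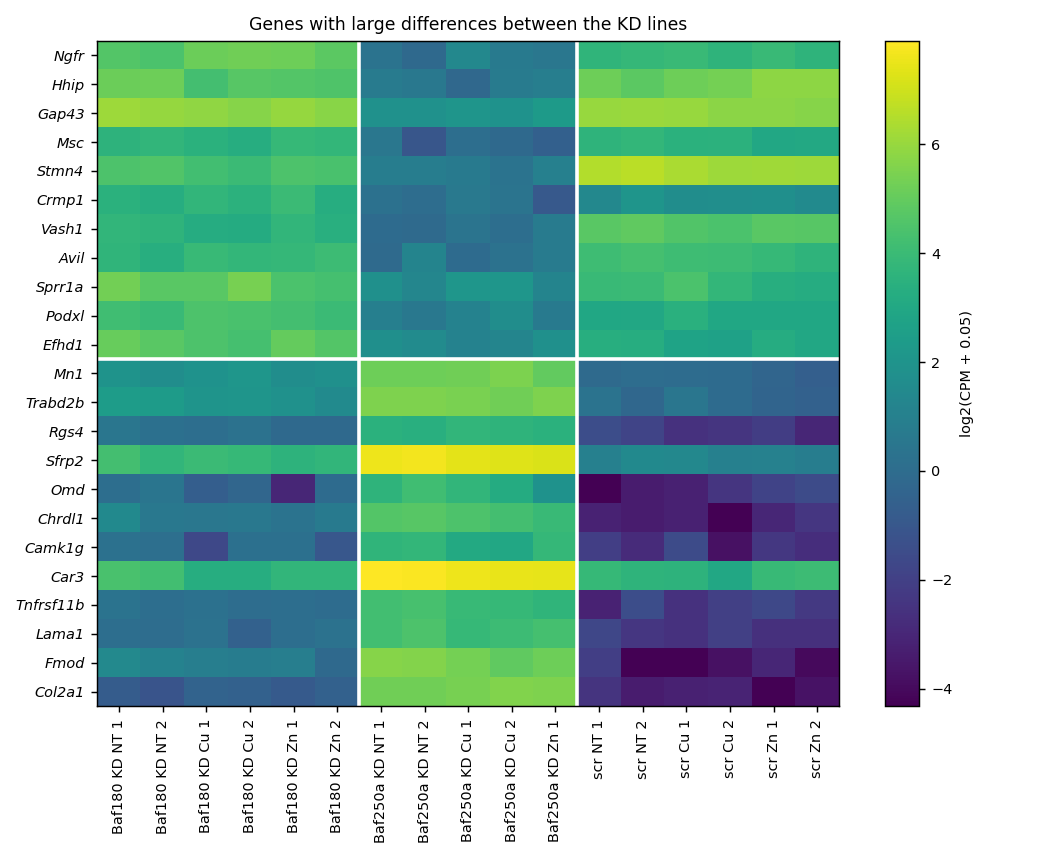
Heat map of log2(CPM + 0.05) for 11 of the 12 genes highest and the 12 lowest in Baf180 KD relative to Baf250a KD cells (rows), in the 11 libraries compared and the 6 scr libraries (columns). The colour changes at the border between the KD lines for every gene, as the rule that chose the genes requires, and the scr mean is lowest for all of the lower 12.

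Genes of the extracellular matrix were mostly lower in Baf180 KD than in Baf250a KD cells. Of 33 collagen genes tested, 21 were lower in Baf180 KD cells and 3 higher (63.6% and 9.09%), and the list's median log2 difference was -0.93 against 0.0072 for all genes. After Col2a1 the lowest was Col10a1, the collagen of hypertrophic cartilage (0.429 ± 0.19 against 5.93 ± 1.75 CPM), and the fibril collagens that fibroblasts and myoblasts make, chosen after their values were seen, were lower as well: Col1a1 had 377 against 2220 CPM (log2 -2.58) and Col3a1 1470 against 2780 CPM (log2 -0.93). Col7a1, the anchoring fibril collagen, and Col5a3 went the other way, with log2 differences of 1.05 ± 0.17 and 0.87 ± 0.083. Of 38 matricellular and proteoglycan genes, 29 were lower and 4 higher in Baf180 KD cells (median -0.97). The largest differences were those of Fmod and of Acan, the core protein of aggrecan, but Acan was near 0 in both lines (0.00754 ± 0.0185 against 0.187 ± 0.167 CPM). Acan passed the filter on low counts through Baf250a KD libraries only. Among the higher ones were Fbln1, a fibulin (80.5 ± 8.3 against 49.7 ± 7.38 CPM), and Tnc, the gene of tenascin C (1130 ± 58.4 against 864 ± 48.8 CPM).

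Of 26 matrix proteases and inhibitors, 19 were lower and 5 higher (73.1% and 19.2%, against 22.6% and 21.7% of all genes), with a median of -0.52. Timp3, an inhibitor of metalloproteases that is bound to the matrix, had 160 to 204 CPM (median 177) in Baf180 KD cells and 737, 743, 722, 656 and 717 CPM in Baf250a KD cells (log2 -1.99 ± 0.064, edgeR adjusted p = 1.27e-12), with no overlap. Adamts9, a protease that cuts proteoglycans, differed by -1.83 ± 0.18. Plau, which encodes urokinase, was higher in Baf180 KD cells (221 ± 10.8 against 114 ± 25.1 CPM), and so was Mmp10, a stromelysin, at a low level (1.62 ± 0.681 against 0.167 ± 0.144 CPM). Mmp10 passed the filter on low counts through Baf180 KD libraries only, so its direction was largely set by the filter. Of 32 integrin, laminin and cadherin genes, 20 were lower and 8 higher. Itga11, the α chain of a collagen receptor, had 5.61 to 10.2 CPM (median 6.27) against 74.5, 75.9, 50.8, 48.6 and 64.3 CPM (log2 -3.10 ± 0.081, edgeR adjusted p = 1.21e-13). The α6 chain of laminin receptors, Itga6, was higher in Baf180 KD cells (125 ± 11.4 against 45.7 ± 4.84 CPM, log2 1.45 ± 0.062), as was Itgb7 (24.5 ± 7.02 against 9.38 ± 2.25 CPM).

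**Figure D3:**
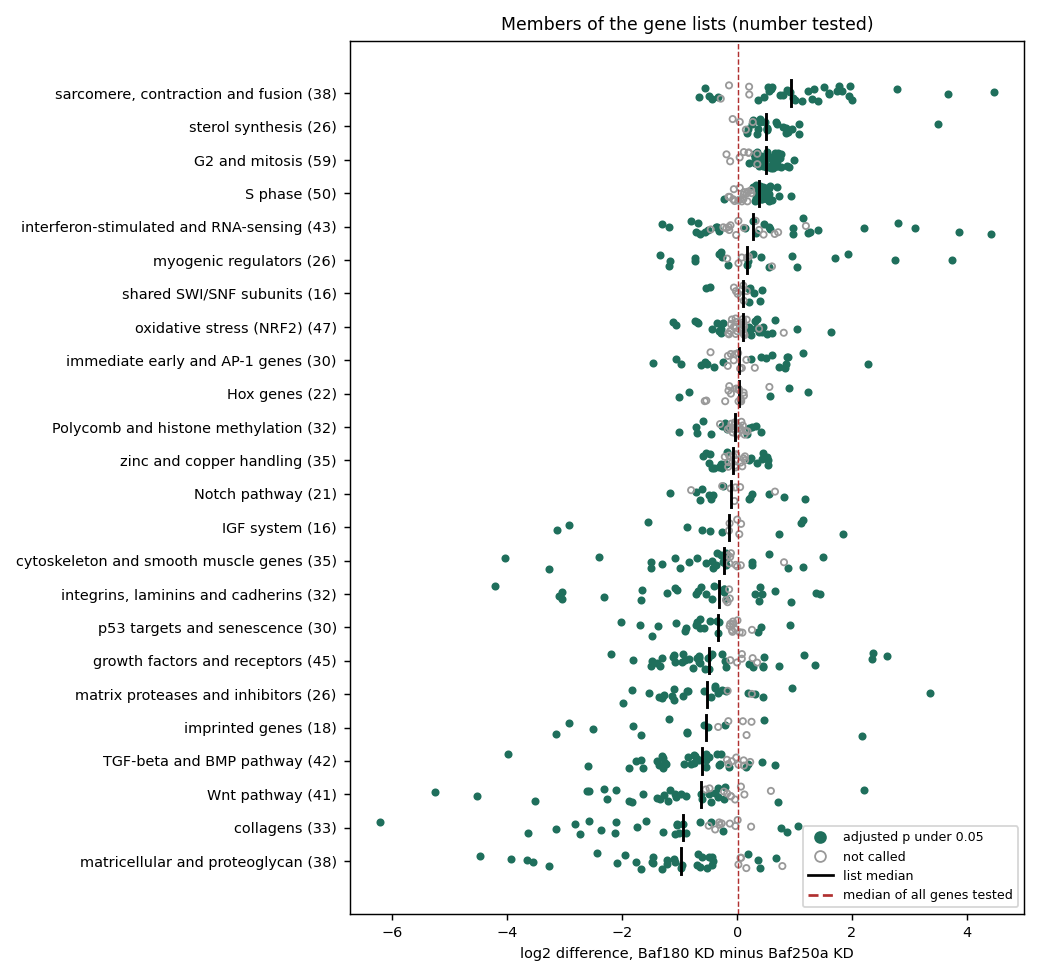
Log2 difference (Baf180 KD minus Baf250a KD) of each tested member of the 24 gene lists with at least 10 tested members, filled where the adjusted p was under 0.05. Black bars mark the list medians, from -0.97 for matricellular and proteoglycan genes to 0.94 for sarcomere genes, and the dashed line marks the median of all genes, 0.0072.

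Genes of the Wnt and of the TGF-β and BMP pathways were mostly lower in Baf180 KD cells. Of 41 Wnt pathway genes, 29 were lower and 2 higher (70.7% and 4.88%, median -0.64). Lgr5, a receptor for R-spondins and itself a Wnt target, had 0.0606 to 0.179 CPM (median 0.125) in Baf180 KD cells and 5.2, 5.43, 4.68, 4.06 and 3.83 CPM in Baf250a KD cells (log2 difference -5.26 ± 0.23 (SE), edgeR adjusted p = 4.37e-11). Every Baf250a KD library was above 3 CPM and every Baf180 KD library below 1. The ligand Wnt5a was near 0 in Baf180 KD cells (0.0522 ± 0.035 against 1.22 ± 0.347 CPM). Lgr5 and Wnt5a passed the filter on low counts through Baf250a KD libraries only, so their direction was largely set by the filter. The 2 higher genes were the ligand Wnt7b (15.1 ± 3.66 against 3.08 ± 0.661 CPM, log2 2.21 ± 0.15) and the receptor Fzd3 (log2 0.71 ± 0.12). Axin2, a feedback inhibitor that Wnt signals are known to induce, was chosen after its value was seen and had 6.83 against 21.3 CPM.

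Of 42 genes of the TGF-β and BMP pathway, 30 were lower and 4 higher (median -0.60). Among ligands, Bmp2 had 0.0836 ± 0.0926 against 1.22 ± 0.116 CPM, and Tgfb2 had 23.2 to 37.9 CPM (median 23.5) against 83.8, 97.4, 89.5, 79.5 and 73.2 CPM (log2 -1.63 ± 0.087, edgeR adjusted p = 4.53e-10). The antagonist Fst, which encodes follistatin and binds activins and myostatin, had 6 to 13.3 CPM (median 10.8) against 59.2, 58.8, 81.2, 72.3 and 45.6 CPM (log2 -2.59 ± 0.09, edgeR adjusted p = 3.22e-12). The lines did not overlap at either gene. Bmp2 passed the filter on low counts through Baf250a KD libraries only, so its direction was largely set by the filter. The latent TGF-β binding proteins Ltbp4 and Ltbp3 were higher in Baf180 KD cells, by 0.65 ± 0.059 and 0.44 ± 0.062. Id1 (chosen after its value was seen), Id2 and Id3, known BMP targets that encode inhibitors of bHLH factors such as MyoD, were lower, and Id3 had 80.6 to 111 CPM (median 85.2) against 275, 263, 182, 222 and 205 CPM (log2 -1.35 ± 0.10).

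Of 45 other growth factors and receptors, 28 were lower and 11 higher in Baf180 KD cells (62.2% and 24.4%, median -0.50). Erbb3, a neuregulin receptor, and Fgf5 were the highest, with 11.5 ± 1.42 against 1.78 ± 0.537 CPM and 5.62 ± 1.29 against 1.06 ± 0.216 CPM (log2 2.62 ± 0.16 and 2.36 ± 0.19). Fgfr4, an FGF receptor of muscle precursors, and Fgf9 were the lowest, with 1.11 ± 0.293 against 4.87 ± 1.11 CPM and 0.18 ± 0.0814 against 0.645 ± 0.106 CPM. Fgf9 passed the filter on low counts through Baf250a KD libraries only, so its direction was largely set by the filter. In the IGF system 7 of 16 genes were lower and 4 higher (43.8% and 25%, beside 22.6% and 21.7% of all genes, median -0.14). Both ligands were lower: Igf1, a growth factor of muscle, had 1.65 to 5.72 CPM (median 2.82) against 32.8, 35.6, 23, 19 and 26.3 CPM (log2 difference -3.13 ± 0.13 (SE), edgeR adjusted p = 2.29e-11), and Igf2 had 0.239 ± 0.16 against 2.08 ± 0.591 CPM. The RNA-binding protein gene Igf2bp3 and the binding protein gene Igfbp2 were higher, by 1.84 ± 0.11 and 1.15 ± 0.065. Of 18 imprinted genes, 11 were lower and 2 higher, with Mest (1.67 ± 0.122 against 15.2 ± 2.74 CPM) and Igf2 the lowest and Plagl1, a zinc finger gene, the highest (7.42 ± 1.84 against 1.68 ± 0.413 CPM).

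Genes of the contractile apparatus were mostly higher in Baf180 KD cells. Of 38 genes of the sarcomere, of contraction and of fusion, 29 were higher and 5 lower (76.3% and 13.2%, median 0.94). Myh4 and Myh8, myosin heavy chains of fast and of newborn fibers, had the largest differences but low levels, with 0.536 ± 0.104 against 0.0189 ± 0.0422 CPM and 1.63 ± 0.505 against 0.13 ± 0.0888 CPM. Both passed the filter on low counts through Baf180 KD libraries only, so their direction was largely set by the filter. Members with more counts, chosen after their values were seen, showed the same direction: Myh3, the embryonic myosin, had 29.6 against 8.46 CPM (log2 1.82), Myl4 16.1 against 4.21 CPM (1.95), Acta1 54.5 against 32.4 CPM (0.79) and Mymk, the fusion protein myomaker, 8.84 against 4.24 CPM (1.12). The lowest were Tpm1, a tropomyosin that is also made in non-muscle cells (734 ± 38.9 against 1150 ± 93.1 CPM), and Jph2, which encodes junctophilin 2 (154 ± 22.3 against 228 ± 16.1 CPM). Ttn and Myh7 were not called. In bulk RNA, fewer cells of a type and less RNA per cell cannot be told apart.

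Regulators of myogenesis did not share 1 direction. Of 26 tested, 11 were higher and 9 lower in Baf180 KD cells (42.3% and 34.6%, beside 21.7% and 22.6% of all genes, median 0.17). After Msc, the highest was Mef2c, a partner of MyoD (2.1 ± 0.744 against 0.307 ± 0.117 CPM, log2 2.75 ± 0.27). Mef2c passed the filter on low counts through Baf180 KD libraries only, so its direction was in part set by the filter. Pax7, the marker of muscle stem cells, had 2.74 to 3.52 CPM (median 3.06) against 0.932, 0.378, 1.05, 0.849 and 0.766 CPM (log2 1.93 ± 0.21, edgeR adjusted p = 1.61e-06), and Myog, chosen after its value was seen, had 29.1 against 8.84 CPM (log2 1.71). Myod1 itself was slightly lower (111 ± 10.4 against 134 ± 12.6 CPM, log2 -0.26 ± 0.065, edgeR adjusted p = 0.00413), and its ranges in the lines overlapped. Id3 and Id2 were the lowest, at -1.35 and -1.19.

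The promoters of the muscle genes are shown because the lists moved together and the letters are known sites of muscle factors. RefSeq promoters (GRCm38.p6, 250 bases before to 50 bases from the start of transcription, the first listed start of each gene) were matched by symbol for 10762 of the genes tested. The E-box CAGCTG, which MyoD can bind and which reads the same on both strands, was found in 14 of 32 promoters of the sarcomere list (43.8%) and in 15.2% of all promoters. The MCAT letters CATTCC, read by TEAD factors, were found on either strand in 12 of 32 (37.5%) and in 11.9% of all. The sequences below are from the 3 called members of the list with the highest log2 difference among those with a match and a mean of at least 5 CPM in Baf180 KD cells, with the E-box in capitals.
Mybph, chr1:134193357-134193386, plus strand: gacctgaccccaCAGCTGggaatggtttgc
Tnni1, chr1:135799341-135799370, plus strand: gggaaggaggggCAGCTGgaggggcagcgg
Mylpf, chr7:127211545-127211574, plus strand: cttcctgggctcCAGCTGctgcaggcctcc
Their log2 differences were 1.97, 1.52 and 1.24. In all, 11 letter strings were searched in 5 lists, chosen with the lists' results known, and a match is a description of these letters and not of a bound site.

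Markers of the cell type and of others it could hold were checked. All 8 myoblast markers were detected in both lines, with summed levels of 2177 to 2397 CPM in Baf180 KD and 1581 to 1720 CPM in Baf250a KD libraries. Of these, 7 were higher in Baf180 KD cells and Myod1 was lower. Smooth muscle markers went the other way, with 4 of 6 lower and sums of 2128 to 3354 against 6341 to 7399 CPM. Of the 8 markers of cartilage and bone, 5 passed the filter on low counts and 4 of these were lower in Baf180 KD cells. Their sums of 228 to 270 against 292 to 355 CPM came mostly from Sox9 and Runx2 and, in Baf250a KD cells, from Col2a1, while Acan, Sp7, Bglap, Ibsp and Alpl were below 1 CPM in every library of both lines. Acan and Sp7 passed the filter through Baf250a KD libraries only, so their direction was largely set by the filter. Of 7 adipocyte markers 3 passed the filter, 2 of them lower, and Cidec was at 0 in all Baf180 KD and Plin1 in all Baf250a KD libraries. Fabp4, among the lower ones, likewise passed through Baf250a KD libraries only. Endothelial, leukocyte and epithelial markers summed to at most 6.48 CPM in either line, and Cldn5 was at 0 in all 11. Of 6 neural markers 2 were higher, Map2 (19.9 against 3.2 CPM) and Sox2 (0.411 against 0.0412 CPM), and Rbfox3 was near 0. Sox2 passed the filter through Baf180 KD libraries only. The part of other cell types in the results was not tested.

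Of 35 genes of the cytoskeleton and of smooth muscle, 21 were lower and 6 higher in Baf180 KD cells (60% and 17.1%, beside 22.6% and 21.7% of all genes). Cnn1, which encodes calponin 1 of smooth muscle, had 3.04 to 7.19 CPM (median 5.42) against 49.3, 46, 54.3, 60.7 and 47.7 CPM (log2 -3.27 ± 0.13, edgeR adjusted p = 1.57e-11), without overlap. Myh11, the smooth muscle myosin, was low in both lines (0.0455 ± 0.044 against 0.77 ± 0.274 CPM), while Acta2 had 1830 to 2970 against 5380 to 6600 CPM. Tead4, a partner of YAP with a role in myoblast differentiation, was higher (26.8 ± 4.35 against 12.4 ± 2 CPM, log2 1.14 ± 0.075), as was Ankrd2 at a low level (0.87 ± 0.136 against 0.316 ± 0.113 CPM). Myh11 passed the filter on low counts through Baf250a KD libraries only, and Ankrd2 through Baf180 KD libraries only. Their direction was therefore in part set by the filter.

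Cell cycle genes were higher in Baf180 KD cells by small amounts. Of 59 genes of G2 and mitosis, 51 were higher and none lower (86.4%, median 0.50), and of 50 genes of S phase, 32 were higher and 1, Orc6, lower (median 0.37). Orc6 was not called without Zn replicate 1 of Baf250a KD (log2 -0.16). Cenpa, the centromeric histone, had 73.9 to 90.2 CPM (median 84.4) in Baf180 KD cells and 41.5, 38.8, 35.2, 41 and 49.5 CPM in Baf250a KD cells (log2 difference 0.99 ± 0.077 (SE), edgeR adjusted p = 3.7e-08). Plk1, a mitotic kinase, had 96.8 to 149 CPM (median 124) against 59.4, 55.2, 60.8, 61.3 and 88.3 CPM (log2 0.91 ± 0.089). Neither gene overlapped between the lines. The licensing factor Cdt1 (105 ± 15.9 against 54.1 ± 6.01 CPM) and the cyclin gene Ccne1 (46.2 ± 4.61 against 27.7 ± 6.44 CPM) led the S phase list. Differences of single genes were modest, and with a minimum fold of 1.5 the calls fell to 22 in G2 and mitosis and 4 in S phase. Of the called members, scr was nearer to Baf180 KD in 46 of 51 and 32 of 33.

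The promoters of the G2 and mitosis list are known for the cell cycle homology region, TTTGAA, which binds the DREAM and MuvB complexes. These letters stood on either strand in 35 of 49 promoters of the list (71.4%) and in 11.9% of all promoters, and in 5 of 40 of the S phase list (12.5%). The E2F-like letters TTTNGCGC stood in 11 of 40 of the S phase list (27.5%) and in 2.43% of all, and TTTCGCG in 17.5% and 1.77%. The 3 members of the G2 and mitosis list chosen by the same rule as above are shown with the match in capitals, which in Kif2c is on the opposite strand.
Cenpa, chr5:30666890-30666919, plus strand: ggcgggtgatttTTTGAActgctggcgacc
Plk1, chr7:122159453-122159482, plus strand: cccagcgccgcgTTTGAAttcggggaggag
Kif2c, chr4:117178858-117178887, minus strand: ccaggctgctctTTCAAAcctgagtaatgc

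Among p53 targets and senescence genes, 16 of 30 were lower in Baf180 KD cells and 3 higher (53.3% and 10%, beside 22.6% and 21.7% of all genes, median -0.33). Cdkn1a, the gene of the cell cycle inhibitor p21, had 241 to 336 CPM (median 299) against 545, 494, 618, 612 and 523 CPM (log2 -0.89 ± 0.072, edgeR adjusted p = 5.51e-08). The death receptor gene Fas had 3.22 to 4.78 CPM (median 4.05) against 15.7, 17.2, 17.1, 14.9 and 14.6 CPM, and Trp53inp1, a p53-induced stress gene, 22.8 ± 6.6 against 77.2 ± 18.8 CPM. All Baf180 KD values lay below the Baf250a KD values for these 3 genes. Plk3 and Tigar were higher, by 0.91 ± 0.099 and 0.41 ± 0.082.

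Genes of sterol synthesis were higher in Baf180 KD cells, 22 of 26 with none lower (84.6%, median 0.50). Insig1, the sterol-dependent anchor of SREBP, had 142 to 200 CPM (median 166) against 77.6, 70.3, 66.2, 62.4 and 102 CPM (log2 1.08 ± 0.082, edgeR adjusted p = 2.62e-08), without overlap. The smallest called differences were those of Hsd17b7 (0.19 ± 0.074) and Sc5d (0.17 ± 0.067), which are lost under several other settings. For all 22 called members the scr mean was nearer to Baf250a KD than to Baf180 KD, while over all called genes it was nearer to Baf180 KD at 75.2%. The CCAAT box, the site of NF-Y, stood on either strand in 16 of 18 promoters of the list (88.9%) against 39.1% of all promoters, and in 73.5% and 67.5% of those of the G2 and mitosis and the S phase list. The letters CACNCCAC, part of the sterol regulatory element, stood in 3 of 18 (16.7%) against 6.06%. Promoter stretches of 3 members are shown with the CCAAT box in capitals, on the opposite strand in the first 2.
Insig1, chr5:28071184-28071212, plus strand: cgccctcctcccATTGGctccggcggcct
Lss, chr10:76531531-76531559, plus strand: ggtgatgctctgATTGGccgagctcgcat
Pmvk, chr3:89454393-89454421, plus strand: aactcaggttggCCAATtcacagcatcta

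Of 43 interferon-stimulated and RNA-sensing genes, 17 were higher and 11 lower (39.5% and 25.6%, beside 21.7% and 22.6% of all genes, median 0.28). The highest were the chemokine genes Ccl5 and Cxcl10, both below 10 CPM (1.55 ± 0.409 against 0.0713 ± 0.0411 CPM and 1.66 ± 0.791 against 0.109 ± 0.0751 CPM), and the lowest were Irf5 and Tap1, the peptide transporter (3.22 ± 0.35 against 7.48 ± 0.729 CPM). Ccl5 and Cxcl10 passed the filter on low counts through Baf180 KD libraries only, so their direction was largely set by the filter. Of 30 immediate early and AP-1 genes, 11 were higher and 8 lower (36.7% and 26.7%, against 21.7% and 22.6% of all genes), with a median of 0.034. Atf3, a stress-induced transcription factor gene, had 20.6 to 29.1 CPM (median 24.6) against 5.71, 5.15, 3.44, 4.36 and 6.27 CPM (log2 2.28 ± 0.14, edgeR adjusted p = 1.43e-09), and the phosphatase gene Dusp4 258 ± 58 against 117 ± 20.8 CPM. Nr4a3 and Btg2 were the lowest, by -1.47 ± 0.23 and -1.07 ± 0.07.

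Genes of zinc and copper handling showed small differences between the lines. Of 35 tested, 8 were higher and 12 lower in Baf180 KD cells (22.9% and 34.3%, against 21.7% and 22.6% of all genes), and all log2 differences lay between -0.60 and 0.54. The metallothionein genes Mt1 and Mt2, which bind surplus metal and respond to the factor MTF1, were not called over all treatments, with log2 differences of -0.03 ± 0.11 (edgeR adjusted p = 0.859) and 0.14 ± 0.10 (edgeR adjusted p = 0.296). Mt1 had 216 to 723 CPM (median 303) in Baf180 KD cells and 274, 262, 328, 325 and 497 CPM in Baf250a KD cells. In both lines the highest Mt1 values were those with Zn, and the ranges overlapped widely. Within Zn, Mt2 was called higher in Baf180 KD cells, with 375 and 306 against 213 CPM in the 1 Baf250a KD library (log2 0.68, edgeR adjusted p = 0.000952), beside -0.07 in NT and 0.01 in Cu. The test of that change with Zn did not pass (edgeR adjusted p = 0.205). Slc30a1, the zinc exporter of the cell membrane, had 15.8 to 36 CPM (median 18) against 25.6, 29.5, 24, 25.3 and 49.5 CPM (log2 -0.60 ± 0.08, edgeR adjusted p = 1.59e-05), with overlap over all treatments. Within each treatment, though, every Baf180 KD value lay below every Baf250a KD value. The copper pump gene Atp7a was lower in Baf180 KD cells (38.9 ± 6.44 against 53.5 ± 3.49 CPM), as was Ccs, the copper chaperone of superoxide dismutase (-0.54 ± 0.12). The log2 difference of Atp7a was -0.31 in NT, -0.72 in Cu and -0.34 in Zn. The test of its change with Cu did not pass (edgeR adjusted p = 0.159). Mtf1 (43.3 ± 2.8 against 36.4 ± 2.38 CPM), the mitochondrial copper chaperone Cox17 (0.53 ± 0.089) and Steap1 (0.54 ± 0.091), a metalloreductase gene, were higher.

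**Figure D4:**
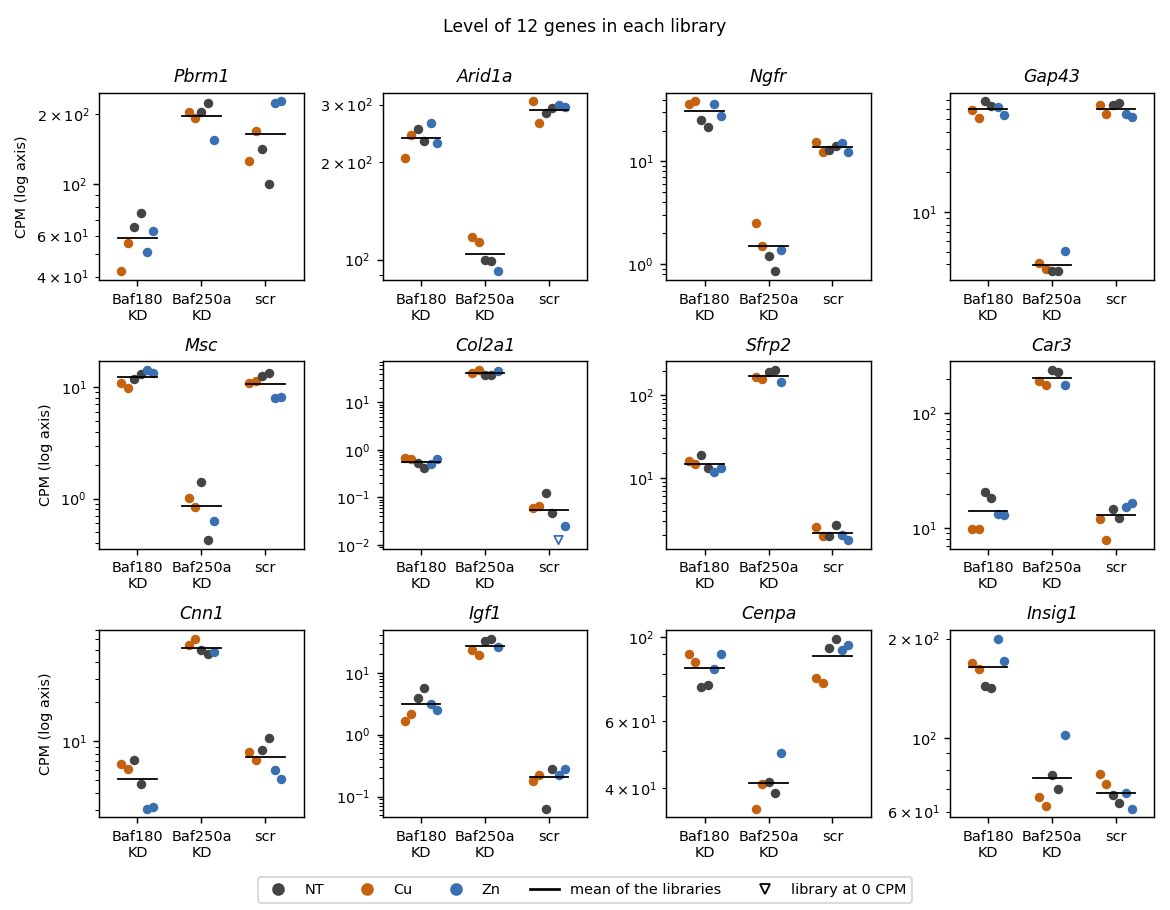
Level in CPM (log axis) of 12 genes in each library of Baf180 KD, Baf250a KD and scr cells, coloured by treatment, with a bar at the mean and an open triangle for a library at 0. The KD lines do not overlap at any of the 12 genes, while the scr libraries lie near Baf180 KD for Gap43, Msc, Car3, Cnn1 and Cenpa, near Baf250a KD for Insig1, below both for Col2a1, Sfrp2 and Igf1, and between them for Ngfr.

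The scr libraries, which took no part in the test, place the 2 KD lines. At 5506 of the 7321 called genes (75.2%) the scr mean was nearer to Baf180 KD than to Baf250a KD, 74.8% for the genes higher in Baf180 KD and 75.6% for the lower ones. The scr mean lay above both lines at 51.9% of the higher genes and below both at 57.9% of the lower ones. For collagens scr was nearer to Baf180 KD at 22 of 24 called members, for the Wnt pathway at 29 of 31, for the TGF-β and BMP pathway at 29 of 34, and for the sarcomere list at 16 of 34. All 6 scr libraries fell between all libraries of the lines at 69 called genes, of which 58 also met the CPM and overlap rule used for the 24 genes above. The 5 highest of these 58 were Ngfr, Crmp1, Podxl, Efhd1 and Acsbg1, an acyl-CoA synthetase gene. Acsbg1 had 22.6 to 42.2 CPM (median 30.9) in Baf180 KD, 8.47 to 10.4 CPM (median 9.17) in scr and 2.64, 3.02, 3.76, 4.97 and 4.39 CPM in Baf250a KD cells. The 5 lowest were Fndc1, Hmcn1, Col27a1, Txnip and Tgfb2. Fndc1, which encodes a fibronectin domain protein, had 23.5 to 45.2 CPM (median 32.9), 91.8 to 163 CPM (median 144) and 348, 387, 289, 281 and 243 CPM in the same order, and Txnip, an inhibitor of thioredoxin and of glucose uptake, 26.3 to 50.3 CPM (median 39.7), 53.7 to 77.1 CPM (median 62.4) and 135, 126, 143, 147 and 115 CPM.

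Within single treatments 5004 genes were called in NT (30.2%), 6682 in Cu (40.4%) and 3365 in Zn (20.3%), where Baf250a KD had 1 library and its spread was taken from the other groups. The count in NT fell to 3269 without NT replicate 2 of Baf250a KD, and that in Cu to 4302 without Cu replicate 1 of Baf250a KD. Of the 7321 genes called over all treatments, 6902 (94.3%) had the same sign in all 3, and 2229 genes were called in all 3 with 1 sign. The difference between the lines changed with Cu at 51 genes (0.308% of those tested) and with Zn at 1 gene (0.00604%). The 1 gene, named after its value was seen, was CT010467.2, an unprocessed pseudogene by the annotation. It had 84.3 against 19.5 CPM in NT and 44.2 against 104 CPM in Zn, with 1 Baf250a KD library. Its name shares a stem with CT010467.1, counted above with the RNAs that ribosomal RNA removal leaves behind. Mir6236, of the same list, was among the 51. The part of such RNAs in these changes was not tested. The 51 rested on single libraries, since none was called without Cu replicate 1 of Baf180 KD and 1024 were called without Cu replicate 2. Among the 8 with the smallest adjusted p, named by that order, Trib3 and Chac1, targets of the amino acid stress factor ATF4, had log2 differences of 0.76 and -0.03 in NT and 1.85 and 1.00 in Cu (edgeR adjusted p = 0.0283 for the change of each). Postn, the gene of the matrix protein periostin, had -1.29 in NT and -2.48 in Cu. The others were Inhba, Ncl, Nr4a1, Pappa and Tm4sf1.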

How the data were processed

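RNA from the 24 libraries was sequenced after ribosomal RNA was digested with RNase H, with a strand-specific kit. The authors aligned reads to mm10 with STAR, kept unique reads, and deposited featureCounts counts of read pairs per gene, whole numbers that are not normalized, for 55291 symbols. They also deposited tables of their own comparisons (fold changes and p-values), which were not used. Samples were grouped by title, because a treatment tag contradicts the titles. The sources give different accounts of the cells (primary or C2C12) and of how they were transfected.

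The counts were tested in R 4.3.3 with edgeR 4.0.16 (quasi-likelihood, TMM, filterByExpr with a count minimum of 10, treatment + line, 6 against 5 libraries, Benjamini-Hochberg adjusted p under 0.05). Contrasts within treatments came from 1 mean per group. A gene passed the filter where 1 library reached the minimum, so some genes near 0 in 1 line passed through the other line alone. The direction of such genes was in part set by the filter. CPM are TMM-scaled on the same scale for scr. The members and gene lists were chosen with earlier results of these data known. Named genes are the targets, the 12 highest and 12 lowest called genes (mean of at least 5 CPM, no overlap, no predicted genes or small RNAs), the 2 highest and 2 lowest called members of each list (the 2 of highest CPM where none was called), the 5 highest and 5 lowest with scr between the lines, and 8 genes of the study. In counts simulated for this comparison, the test called 90% of 100 genes with a true log2 difference of 1 and 66% of 100 with 0.5, over 15996 genes. The changed genes were few and were drawn from genes with more counts, and no treatment effect was simulated. These shares therefore do not cover genes of low counts. A gene that the rule names is not reported here. Annotation was GENCODE M21 (GRCm38). Counts of near-identical copies are uncertain, since unique reads were kept. Alternatives were DESeq2 1.42.0, RLE factors, 2 other filters, a minimum fold of 1.5, no treatment term, a replicate block, other sets of libraries, thinning, an offset for GC content and length, and leaving out each library.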

Additional observations from a re-analysis of the deposited data

Results flagged for a closer look

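For 2 of the named genes the difference between the lines was not the same with Cu as without metal, by the test of that change. Car3 had a log2 difference of -3.57 in NT and -4.24 in Cu, a change of -0.67 (edgeR adjusted p = 0.0407). Trp53inp1 had -1.41 in NT and -2.27 in Cu, a change of -0.86 (edgeR adjusted p = 0.0407). In each of the 3 treatments both genes stayed lower in Baf180 KD cells. Over all genes tested the same test called 51 with Cu, of which 27 had opposite signs in NT and Cu and 23 were farther from 0 in Cu with the same sign, and 1 with Zn. At an unadjusted p under 0.05 there were 2912 and 1530. The number called with Cu changed from 0 to 1024 with the library left out.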

How the results depend on the processing

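The count of called genes stayed within 1.5 times 7321 (3585 higher and 3736 lower) under each alternative but the minimum fold of 1.5, which left 2906 (1363 higher and 1543 lower). The other settings gave between 6503 and 7663. DESeq2 called 7249, 7118 of them shared with edgeR with the same sign, and the offset for GC content and length called 7483 with 6530 shared. Leaving out each library in turn gave 6503 to 7473 called genes, 3188 to 3837 higher and 3291 to 3690 lower. The log2 difference of Pbrm1 then ran from -1.81 to -1.62 and that of Arid1a from 1.11 to 1.25 (adjusted p from the full fit 1.14e-09 and 5.56e-09), and both stayed called under each alternative run. Counts within treatments ran from 3269 (without NT replicate 2 of Baf250a KD) to 5205 for NT, from 4302 (without Cu replicate 1 of Baf250a KD) to 6887 for Cu and from 2744 to 3561 for Zn.

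The change of the difference with metal was unstable. With Cu it was called at 51 genes, and at 614 with DESeq2, 1099 with a filter of at least 1 count and 482 with the replicate block, and at 0 to 1024 with a library left out. With Zn it was called at 1 gene, at 44 with DESeq2, at 238 with the filter of at least 1 count, and at 0 to 11 with a library left out. The cause was not tested. Without Zn replicate 1 of Baf250a KD no contrast for Zn could be fitted.

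Of 56 counts of list members in 1 direction, 32 moved by over 1.5 times with the minimum fold, 5 with the offset for GC content and length (with or without the replicate block), 4 without the Zn libraries, and at most 3 under any other setting with all 11 libraries or more. With a library left out, 22 of the recomputed counts moved and 594 did not. Apart from the minimum fold, those that moved were counts of higher members of the PBAF, non-canonical BAF, protease, imprinted, TGF-β and BMP, NRF2, Polycomb and carry-over lists, and of lower members of the Hox, S phase and G2 and mitosis lists.

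Of the 129 named genes other than the targets that were called, 119 kept their call and sign under each setting but the minimum fold, and 103 passed that one. The calls lost were those of Hoxb4, Hsd17b7, Kcnq1ot1, Kif11, Orc6, Rmrp, Rn7sk, Rpph1, Sc5d and Slc30a1. The sign turned for 3 genes that were not called. Bicral had 0.0328 with the GC content and length offset and 0.0354 with the replicate block added. Mt1 had 0.19 without the treatment term, 0.0214 with all cell lines in 1 fit, and -0.137 to 0.0455 with a library left out. Mt2, which was called (0.21) with all cell lines in 1 fit, had -0.0445 with the offset, -0.0475 with the block added, -0.0204 without the Zn libraries (added after seeing the data) and -0.0335 without Zn replicate 1 of Baf250a KD.

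Replicate numbers are shared between groups, but libraries of 1 number did not deviate together throughout: over 10 pairs of groups the correlation of their deviations ran from -0.209 to 0.419, and 6 were over 0.1. With the replicate block 7551 genes were called, 7215 of them shared with the same sign. Thinned to the smallest total, 6871 genes were called. Tested within NT, with fewer libraries, the simulated counts gave back 18% of genes changed by 0.5.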

Other observations

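The oxidative stress list (the NRF2 list above) mixes the gene of the factor NRF2, targets of it and other antioxidant genes. Of its 47 genes tested, 14 were higher in Baf180 KD cells and 11 lower. These are 29.8% and 23.4%, beside 21.7% and 22.6% of all genes tested. Without the treatment term 8 were higher. The highest were Gsta2, a glutathione transferase with near-identical relatives (2.35 ± 0.834 against 0.843 ± 0.633 CPM), and Slc7a11, the cystine transporter (20.1 ± 2.96 against 10.3 ± 4.15 CPM, log2 1.04 ± 0.14). The lowest were Gstt1 and Gpx3, the secreted glutathione peroxidase (6.61 ± 2.08 against 14.2 ± 4.48 CPM). In the Notch pathway 6 of 21 genes were higher and 8 lower (28.6% and 38.1%, beside 21.7% and 22.6% of all genes). The ligand gene Jag2 (91 ± 11.2 against 39.8 ± 6.65 CPM) and the ubiquitin ligase gene Dtx4 were the highest. The coactivator gene Maml2 had 30.4 ± 3.52 against 71.8 ± 15.4 CPM and Lfng, which adds sugars to Notch, 13.9 ± 1.71 against 23 ± 3.05 CPM.

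Hox genes, which mark the position a cell came from, were mostly not called, with 3 of 22 higher, 2 lower and 17 that did not pass the test. The called shares were 13.6% and 9.09%, beside 21.7% and 22.6% of all genes. Hoxc13 had 16.3 ± 2.67 against 34.7 ± 6.45 CPM (log2 -1.02 ± 0.079). Hoxb3 and Hoxb4 were higher at low levels (1.11 ± 0.267 against 0.466 ± 0.271 CPM and 1.44 ± 0.937 against 0.671 ± 0.182 CPM), and the call of Hoxb4 was lost without any 1 of 7 libraries. With the offset for GC content and length 5 Hox genes were lower. Of 32 Polycomb and histone methylation genes 5 were higher and 8 lower, 15.6% and 25% beside 21.7% and 22.6% of all genes, with Kdm5b, a histone demethylase gene, the lowest (49 ± 3.25 against 100 ± 5.77 CPM) and Cbx2 the highest (32.9 ± 2.43 against 24.6 ± 3.35 CPM). Bmi1 was lower as well (-0.72 ± 0.13).

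By chromosome the median log2 difference ran from -0.14 on chromosome 13 to 0.20 on chromosome 10, where 55.1% of genes were called. Across 12689 protein-coding genes (genes are no independent replicates) the difference had a Spearman correlation of 0.21 with GC content and of -0.13 with transcript length.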
